A study of Mus musculus with 3 samples.

Results

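Postsynaptic scaffold and kinase genes encode the protein lattice under the receptors of a synapse. The members were 39 mouse genes listed by symbol, chosen with earlier results of these data known, out of 54232 Ensembl gene identifiers. Of these identifiers between 26436 and 29909 had counts in a library. Each symbol matched 1 gene, and all 39 were among the 13884 genes compared, which had at least 1 CPM (counts per 1000000 of the library) in at least 1 library. Counts came from RNA-seq of cultured cortical neurons of wildtype CD1 mice, with 1 library in each of 3 groups. The titles of all 3 libraries read repeat 3, and no other repeat was at hand. IKVAV is a short stretch of laminin, a protein of the extracellular matrix, and the IKVAV PA group was cultured with a peptide amphiphile, a peptide with a fatty tail that assembles into fibres, named for it. Neurons of the IKVAV PA + PEDOT-S group had the same amphiphile with an added component, called PS2 in the sample title and PEDOT-S_OH in the library name, which is taken here to be the sulfonated conducting polymer PEDOT-S. The PDL control is labelled only by that abbreviation, and the treatment field of its label reads peptide amphiphile like that of the other libraries, so groups follow the titles. The labels give no culture age and no number of animals, and refer to a patent for the treatment.

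In an excitatory synapse, MAGUK proteins of the Dlg family bind glutamate receptors at the membrane, Dlgap proteins link them to Shank proteins deeper in the cell, and Homer proteins join Shank to metabotropic receptors and calcium stores. Calcium entering through NMDA receptors loads calmodulin, which activates CaM kinase II, a multi-subunit enzyme of the same lattice, and the phosphatase calcineurin. In cortex the alpha subunit of CaM kinase II and neurogranin are known to rise as excitatory neurons mature, while the beta subunit is present earlier.

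With 1 library a group no test between groups was possible. All differences describe these libraries, and each is given as a log2 ratio of scaled counts with a 95% counting interval, which covers counting error only. A gene was called where the nearer end of its interval lay beyond 1.5-fold, and by a second, finer rule beyond 1.2-fold (0.58 and 0.26 on the log2 scale). Total counts were between 78993105 and 124425958, mitochondrial genes held between 1.55% and 1.92% of counts, and the intervals of members reached a median of 0.03 to 0.04 to each side of the log2 ratio. Of the marker lists for the labelled cell type, all 12 pan-neuronal genes were measured, with a summed level of 8700 to 8899 CPM over the libraries. Of 8 microglia markers 1 passed the expression filter, and Itgam was at 0 counts in the IKVAV PA and PDL control libraries.

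Of the 39 postsynaptic genes, 0 passed the 1.5-fold bound in any of the 3 comparisons, beside 6.54% of all genes compared that did so in at least 1. Past the 1.2-fold bound in at least 1 comparison were 7 of 39 members (17.9%), beside 17.8% of all genes, so that this share lay at the background. Between the scaffolds, Camk2a and Shank1 were lower and Homer1 higher with PEDOT-S. Nrgn was higher in IKVAV PA than in the PDL control, Tanc1 was lower in both scaffold libraries than in the PDL control, and Camk2a, Camk2d and Synpo were lower in IKVAV PA + PEDOT-S than in the PDL control. In bulk RNA fewer cells of a type and less RNA per cell cannot be told apart.

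The counts of called members are read against those over all genes compared, the background. In IKVAV PA against the PDL control 0 of 39 members were past the 1.5-fold bound, where the background was 0.54% of genes higher and 3.42% lower. By the 1.2-fold bound 1 member was higher (background 2.95%) and 1 lower (6.83%). In IKVAV PA + PEDOT-S against the PDL control 0 members were past 1.5-fold (0.447% higher and 3.76% lower), 0 were higher by 1.2-fold (2.61%) and 4 lower (7.74%), which is 10.3% of members. Between the scaffolds 0 were past 1.5-fold (0.331% and 2.02%), 1 was higher by 1.2-fold (2.33%) and 2 lower (6.24%). A strongly expressed gene has a narrow interval, and all 39 members also passed a filter of 5 CPM, which left 10893 genes. Of these 3.46% passed the 1.5-fold bound and 12.7% the 1.2-fold bound in at least 1 comparison. There the background beyond 1.5-fold, higher and lower, was 0.165% and 2.09% in IKVAV PA, 0.321% and 2.16% in IKVAV PA + PEDOT-S, both against the PDL control, and 0.193% and 0.909% between the scaffolds. Beyond 1.2-fold it was 1.85% and 4.71%, 2.3% and 5.33%, and 1.84% and 4.28% in the same order. The largest count was the 4 members lower in IKVAV PA + PEDOT-S than in the PDL control, and each other count was 0, 1 or 2 genes. All of these numbers, the 4 included, are too small to be set apart from the background.

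Promoter sequence was at hand for 4 of the 7 members called past the 1.2-fold bound. The 250 bases before the RefSeq start farthest upstream are shown because Homer1 is the only member that was called higher between the scaffolds. The Homer1 and Camk2d windows lie inside the genomic spans given below, which begin farther upstream (at 93299635 and 126596302). Capitals mark TGACG on either strand, the core of the cyclic AMP response element. Bases are from RefSeq (GRCm38.p6), 5′ to 3′ along the gene, for Homer1 at chr13:93303507-93303756 (plus strand), Camk2d at chr3:126596701-126596950 (plus strand), Tanc1 at chr2:59611792-59612041 (plus strand) and Nrgn at chr9:37552905-37552995 (minus strand, stopped after 91 bases where an annotated exon begins).
Homer1: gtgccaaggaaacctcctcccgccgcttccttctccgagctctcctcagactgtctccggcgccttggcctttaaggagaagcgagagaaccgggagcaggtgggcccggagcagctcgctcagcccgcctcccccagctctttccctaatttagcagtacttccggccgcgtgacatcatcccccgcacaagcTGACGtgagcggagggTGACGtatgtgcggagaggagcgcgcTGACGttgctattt
Camk2d: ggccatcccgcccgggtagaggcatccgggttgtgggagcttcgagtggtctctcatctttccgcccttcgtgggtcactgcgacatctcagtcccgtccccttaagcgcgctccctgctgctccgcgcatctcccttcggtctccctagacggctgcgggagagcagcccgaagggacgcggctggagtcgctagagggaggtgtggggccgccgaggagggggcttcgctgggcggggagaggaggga
Tanc1: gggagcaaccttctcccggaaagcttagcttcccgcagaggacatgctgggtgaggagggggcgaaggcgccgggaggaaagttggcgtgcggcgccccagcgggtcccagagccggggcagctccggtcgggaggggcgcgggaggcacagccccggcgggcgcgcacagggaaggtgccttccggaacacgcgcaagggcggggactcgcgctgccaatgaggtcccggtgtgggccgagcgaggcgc
Nrgn: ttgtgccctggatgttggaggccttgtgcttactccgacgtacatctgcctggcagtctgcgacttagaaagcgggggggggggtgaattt
The Homer1 window shown holds TGACG 3 times, beginning 56, 40 and 14 bases before the start. The other 3 windows shown hold none, counted over the full 250 bases for Nrgn too. Homer1 has 2 windows among the promoter windows used here, and the one not shown holds none. Of 32851 promoter windows of this length 17.8% hold TGACG or its reverse complement CGTCA at least once, and 226 (0.688%) hold it 3 times or more. The table has windows for 29 of the 39 members, 50 in all. Of these 4 (8.0%, beside the 17.8% of all windows) hold the letters at least once and 1 holds them 3 times. A match is a run of letters and not a shown binding site.

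**Figure D1:**
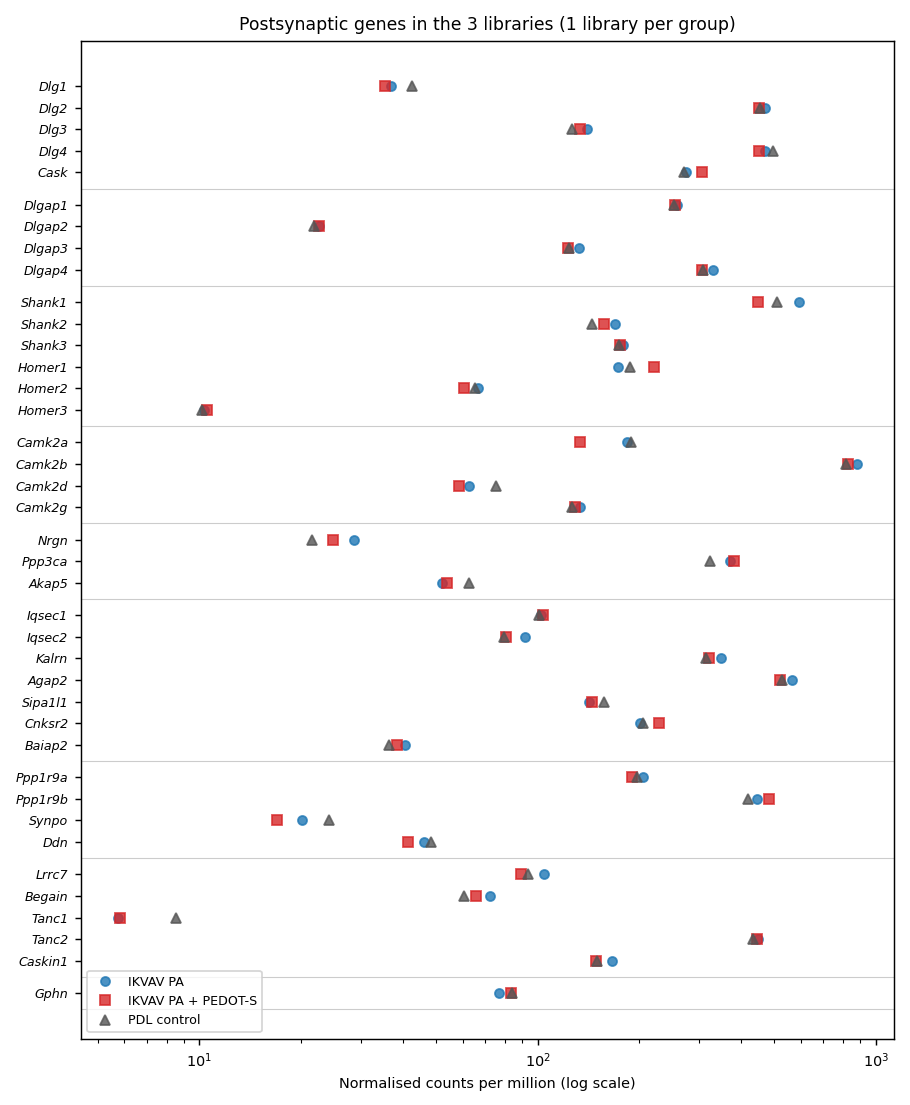
Normalised CPM on a log axis for each of the 39 postsynaptic genes, 1 point per library, with grey lines between groups of related function. The 3 points of most genes lie close together, while Tanc1 runs from 5.74 to 8.54 CPM and Camk2a from 133 to 189 CPM.

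Members ranged from 5.74 to 883 CPM in the IKVAV PA library, from 5.81 to 827 in the IKVAV PA + PEDOT-S library and from 8.54 to 815 in the PDL control. Per kilobase of merged exons, which makes genes of different length comparable, their median level was 16.4, 17.1 and 14.8 CPM, against 5.44, 5.38 and 5.39 for all genes compared, and 32 of 39 members were above the median of all genes in each library. The most abundant on that scale were Camk2b, Agap2 and Ppp1r9b, at 96.7, 95.3 and 87.6 CPM per kilobase in IKVAV PA, 90.7, 87.7 and 95.2 in IKVAV PA + PEDOT-S and 89.3, 88.7 and 82.6 in the PDL control. Camk2b and Agap2 led in IKVAV PA and in the PDL control, and Ppp1r9b came first in IKVAV PA + PEDOT-S. Shank1 had rank 4 among members in all 3 libraries. At the other end Tanc1 was lowest in all 3, at 0.394, 0.399 and 0.586 CPM per kilobase, with Synpo next at 2.11, 1.78 and 2.53. Together the members held 0.814% of all counts in IKVAV PA, 0.770% in IKVAV PA + PEDOT-S and 0.781% in the PDL control.

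Among the MAGUK scaffolds, Dlg4 (PSD-95, which clusters glutamate receptors) stood at 470 CPM in IKVAV PA, 452 in IKVAV PA + PEDOT-S and 498 in the PDL control. Dlg2 (PSD-93) was at 471, 453 and 456 CPM, and Dlg3 (SAP102, which carries NMDA receptors in young neurons) at 140, 134 and 126 CPM. Dlg4 was highest in the PDL control and Dlg3 lowest there, and both differences were small. The log2 ratios to the PDL control were -0.08 (interval -0.10 to -0.07) for Dlg4 and 0.15 (0.11 to 0.18) for Dlg3 in IKVAV PA, and -0.14 (-0.16 to -0.12) and 0.08 (0.04 to 0.12) in IKVAV PA + PEDOT-S. A share within a family needs no scaling between libraries, and it put the PDL control apart in the same way. Dlg4 made up 42.1% of the counts of the 4 Dlg genes in each scaffold library (exact 95% intervals 41.8% to 42.3% and 41.7% to 42.4%) and 44.4% in the PDL control (44.0% to 44.7%). Dlg3 made up 12.5%, 12.5% and 11.2% in the same order. Dlg1 (SAP97), which many cell types express, had 36.7, 35.3 and 42.6 CPM and was lowest relative to the PDL control among the 5 MAGUK genes, with log2 ratios of -0.21 and -0.27. Cask, a MAGUK that joins adhesion proteins to the cytoskeleton, was highest in IKVAV PA + PEDOT-S, at 305 CPM against 275 and 270.

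The Dlgap adaptors (SAPAP proteins), which bind the guanylate kinase domain of Dlg proteins and the PDZ domain of Shank, varied little. Their log2 ratios lay between 0.04 and 0.10 in IKVAV PA and between -0.02 and 0.06 in IKVAV PA + PEDOT-S, each against the PDL control. Dlgap4 was at 330, 307 and 308 CPM, Dlgap1 at 259, 255 and 252, Dlgap3 at 133, 123 and 124 and Dlgap2 at 22.6, 22.6 and 21.8. The largest family share, that of Dlgap4, was 44.4%, 43.4% and 43.6%.

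In the deeper layer Shank1 and Homer1 differed between the scaffolds in opposite directions. Shank1 (ENSMUSG00000038738, GRCm38 chromosome 7, 44310253 to 44360572, plus strand), the largest contributor of the Shank family, which forms the deep layer of the lattice, stood at 592 CPM in IKVAV PA, 450 in IKVAV PA + PEDOT-S and 509 in the PDL control. The PDL control lay between the scaffolds. Shank1 was 1.31-fold lower in IKVAV PA + PEDOT-S than in IKVAV PA (log2 ratio -0.39, interval -0.41 to -0.38), and its log2 ratios to the PDL control were 0.22 in IKVAV PA and -0.18 in IKVAV PA + PEDOT-S, neither past the 1.2-fold bound. Shank2 (169, 157 and 145 CPM) and Shank3 (179, 176 and 174 CPM) had log2 ratios of -0.11 and -0.03 between the scaffolds. Shank1 gave 62.9% of Shank counts in IKVAV PA (62.7% to 63.2%), 57.5% in IKVAV PA + PEDOT-S (57.1% to 57.9%) and 61.5% in the PDL control (61.1% to 61.9%).

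Homer1 (ENSMUSG00000007617, chromosome 13, 93299635 to 93405129, plus strand) codes for the long Homer scaffold and, through a shorter transcript, for the activity-induced form that loosens the lattice, and gene counts do not separate these. Homer1 stood at 173 CPM in IKVAV PA, 221 in IKVAV PA + PEDOT-S and 187 in the PDL control. It was 1.28-fold higher in IKVAV PA + PEDOT-S than in IKVAV PA (log2 ratio 0.35, interval 0.32 to 0.38). Against the PDL control it was at -0.11 (-0.14 to -0.08) in IKVAV PA and 0.24 (0.21 to 0.27) in IKVAV PA + PEDOT-S. Its share of Homer counts was 69.2%, 75.6% and 71.2%, with exact intervals that did not overlap (68.7% to 69.7%, 75.1% to 76.2% and 70.6% to 71.8%). Homer2, at 66.6, 60.6 and 65.4 CPM, was at -0.14 between the scaffolds, and Homer3, weak at 10.3, 10.5 and 10.1 CPM, has 25.4% of its exonic bases in common with another gene, so its count is uncertain.

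Of the CaM kinase II subunits Camk2a stood apart. Camk2a (ENSMUSG00000024617, chromosome 18) codes for the alpha subunit, which is typical of excitatory forebrain neurons. It stood at 184 CPM in IKVAV PA, 133 in IKVAV PA + PEDOT-S and 189 in the PDL control, from 22924, 10445 and 15060 counts. The IKVAV PA and PDL control libraries lay close together (log2 ratio -0.04, interval -0.07 to -0.01) and the IKVAV PA + PEDOT-S library below them. Camk2a was 1.42-fold lower there than in the PDL control (log2 ratio -0.50, interval -0.54 to -0.47) and 1.38-fold lower than in IKVAV PA (-0.46, interval -0.50 to -0.43). Camk2b, the beta subunit, which also binds actin, was at 883, 827 and 815 CPM, and Camk2g, the gamma subunit, at 134, 129 and 127 CPM. Neither of these subunits passed the 1.2-fold bound in any comparison. Camk2d (ENSMUSG00000053819, chromosome 3, 126596302 to 126846326, plus strand), the delta subunit, known also from heart and many other tissues, was at 62.8, 58.7 and 75.3 CPM and was called lower in IKVAV PA + PEDOT-S than in the PDL control (1.28-fold, log2 ratio -0.36, interval -0.42 to -0.30). In IKVAV PA its log2 ratio was -0.26 (-0.31 to -0.21), which did not pass. The alpha share of all CaM kinase II counts was 14.6% in IKVAV PA (14.4% to 14.7%), 11.6% in IKVAV PA + PEDOT-S (11.4% to 11.8%) and 15.7% in the PDL control (15.4% to 15.9%), and the beta share was 69.9%, 72.0% and 67.6%. Per kilobase the alpha share was 17.0%, 13.6% and 18.4%, in the same order. The 8 excitatory neuron markers summed to 1242 CPM in IKVAV PA, 1272 in IKVAV PA + PEDOT-S and 1124 in the PDL control. Between the scaffolds 5 of them had intervals above 0 and 3 below, with log2 ratios from -0.25 to 0.41. Of all 13884 genes 4364 lay above and 3955 below in that comparison. Against the PDL control 6 markers lay above 0 and 0 below in IKVAV PA + PEDOT-S (3968 and 3962 of all genes). In IKVAV PA 6 lay above and 1 below (3894 and 4018 of all genes). The part of these markers in the Camk2a values was not tested.

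**Figure D2:**
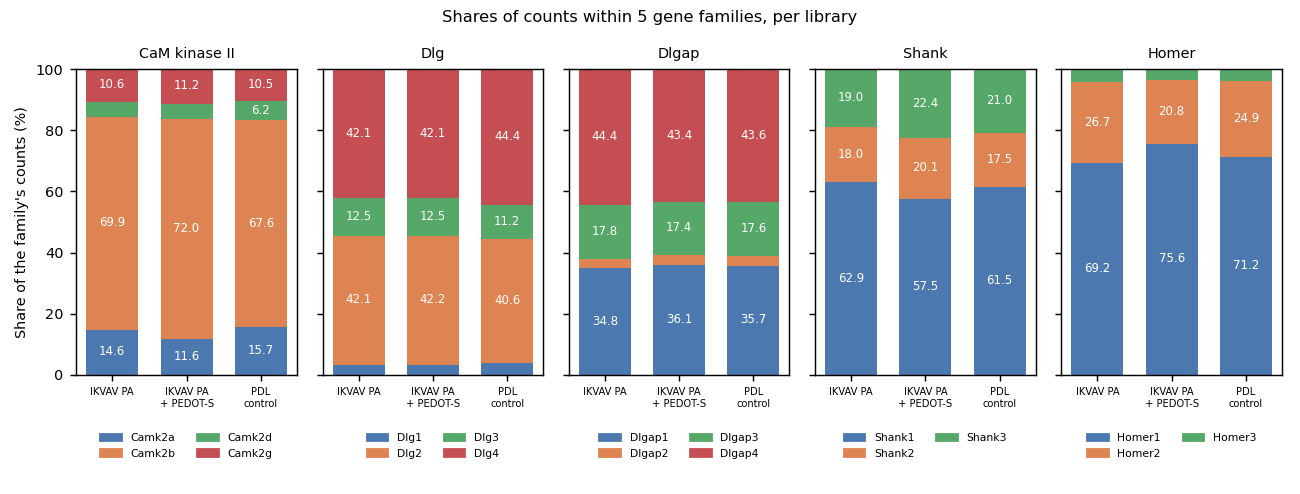
Stacked bars of the share of counts (percent, from 0 to 100) that each gene gave within the CaM kinase II, Dlg, Dlgap, Shank and Homer families, 1 bar per library. Camk2a and Shank1 have their smallest share and Homer1 its largest in the IKVAV PA + PEDOT-S bars, while the Dlgap bars look alike.

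Nrgn, Ppp3ca and Akap5 act around calmodulin. Nrgn (ENSMUSG00000053310, chromosome 9, 37544492 to 37552904, minus strand), neurogranin, which holds calmodulin at low calcium, stood at 28.7 CPM in IKVAV PA, 24.8 in IKVAV PA + PEDOT-S and 21.5 in the PDL control. It was 1.33-fold higher in IKVAV PA than in the PDL control (log2 ratio 0.41, interval 0.33 to 0.50), while the ratio of IKVAV PA + PEDOT-S to the PDL control, 0.20 (0.11 to 0.30), did not pass. The Nrgn call did not hold once the median ratio of genes with like GC content was removed, a choice made after seeing the data (0.33). Ppp3ca, the catalytic A subunit of calcineurin, was at 369, 381 and 323 CPM, above the PDL control in both scaffold libraries (0.19 and 0.24). Akap5, which anchors kinase A and calcineurin at the lattice, was at 52.3, 54.0 and 62.9 CPM and below the PDL control in both (-0.27 and -0.22). None of these ratios of Ppp3ca and Akap5 passed the 1.2-fold bound.

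The regulators of small GTPases, which steer actin and receptor traffic in spines, stayed within the 1.2-fold bound by their whole intervals in all 3 comparisons, 7 of 7 genes, as did the 4 Dlgap genes. Of all genes 61.9%, 56.9% and 59.0% lay within it so in the 3 comparisons, and of those at 5 CPM or more 77.6%, 72.1% and 74.3%. They were Kalrn, an exchange factor for Rac (347, 322 and 315 CPM), Iqsec1 and Iqsec2, exchange factors for Arf6 (103, 104 and 101 CPM, and 91.7, 80.4 and 79.5 CPM), Agap2, an Arf GTPase-activating protein (566, 521 and 527 CPM), Sipa1l1 (SPAR), a Rap GTPase-activating protein (142, 145 and 157 CPM), and the adaptors Cnksr2 and Baiap2 (201, 228 and 205 CPM, and 40.4, 38.4 and 36.4 CPM). Cnksr2 was highest in IKVAV PA + PEDOT-S and Iqsec2 highest in IKVAV PA, with log2 ratios between the scaffolds of 0.18 (0.15 to 0.21) and -0.19 (-0.23 to -0.14).

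Spine actin genes did not move together. Ppp1r9b (spinophilin, which targets protein phosphatase 1 to spines) was highest in IKVAV PA + PEDOT-S at 484 CPM, against 445 in IKVAV PA and 420 in the PDL control. Ppp1r9a (neurabin) was at 205, 190 and 197 CPM. Synpo (ENSMUSG00000043079, chromosome 18), synaptopodin of the spine apparatus, which podocytes also make, stood at 20.1 CPM in IKVAV PA, 17.0 in IKVAV PA + PEDOT-S and 24.1 in the PDL control. Synpo was called lower in IKVAV PA + PEDOT-S than in the PDL control (1.42-fold, log2 ratio -0.50, interval -0.60 to -0.40), and its log2 ratio in IKVAV PA was -0.26 (-0.34 to -0.17). Ddn, dendrin, also of dendrites and podocytes, was at 46.3, 41.4 and 48.4 CPM, lowest in the same library.

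Of the remaining scaffolds only Tanc1 was called. Tanc1 (ENSMUSG00000035168, chromosome 2, 59612042 to 59846149, plus strand), a multidomain partner of PSD-95, was weak, with 715, 455 and 680 counts and 5.74, 5.81 and 8.54 CPM. Both scaffold libraries lay below the PDL control, by log2 ratios of -0.57 (interval -0.73 to -0.42) and -0.55 (-0.73 to -0.38), and beside each other (0.02, interval -0.15 to 0.19). Its relative Tanc2 was far more abundant, at 27.0, 26.8 and 26.1 CPM per kilobase, with log2 ratios to the PDL control of 0.05 and 0.04. Lrrc7 (densin-180, a partner of CaM kinase II) was at 105, 89.1 and 93.5 CPM, Begain (a PSD-95 partner) at 72.3, 65.7 and 60.5 CPM, and Caskin1 (a CASK partner) at 166, 149 and 150 CPM, each highest in IKVAV PA. Gphn, gephyrin, which anchors glycine and GABA-A receptors at inhibitory synapses, was at 76.7, 83.3 and 83.9 CPM, lowest in IKVAV PA (log2 ratio to the PDL control -0.13, interval -0.17 to -0.08).

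Markers of astrocytes, fibroblasts and mural cells, and dividing cells were lower in both scaffold libraries than in the PDL control. The members highest in the PDL control were 10 of 39 (25.6%, beside 31.8% of all genes), namely Dlg1, Dlg4, Camk2a, Camk2d, Akap5, Sipa1l1, Synpo, Ddn, Tanc1 and Gphn. The 9 fibroblast and mural markers summed to 59.4 CPM in IKVAV PA, 27.1 in IKVAV PA + PEDOT-S and 144 in the PDL control, with 7 of 9 measured and 4 and 7 of these past the 1.5-fold bound downward in the scaffold libraries. The 10 astrocyte markers summed to 238, 252 and 392 CPM (7 and 4 of 9 measured genes past that bound downward, and in IKVAV PA + PEDOT-S Gfap, named after its value was seen, past it upward), and the 8 genes of dividing cells to 63.0, 62.0 and 142 CPM. Endothelial markers were weak, at 3.11, 3.03 and 5.26 CPM, markers of GABA interneurons summed to 864, 927 and 954 CPM and those of the oligodendrocyte lineage to 69.1, 96.6 and 100.1 CPM. Single oligodendrocyte lineage markers went in opposite directions, with 2 of 10 higher and 4 lower past 1.5-fold in IKVAV PA and 5 higher and 4 lower in IKVAV PA + PEDOT-S, each against the PDL control. The part of these cells in the values of the members was not tested.

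**Figure D3:**
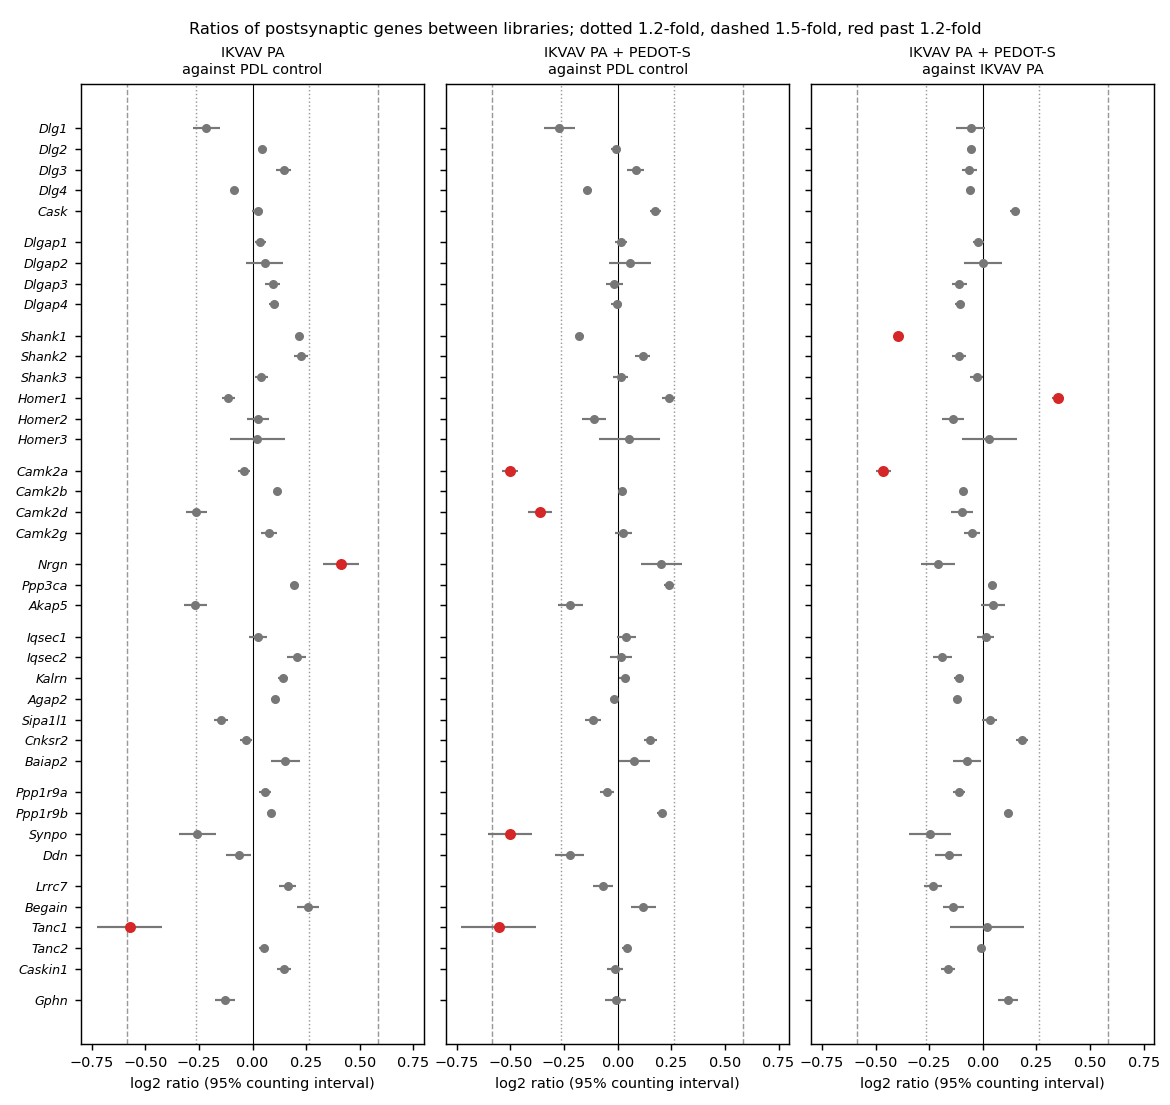
Log2 ratios of the 39 genes in the 3 comparisons, with 95% counting intervals as bars, dotted lines at 1.2-fold and dashed lines at 1.5-fold. Red points are the genes whose interval lies beyond 1.2-fold, and no interval lies wholly beyond a dashed line.

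As a group the members showed small shifts. Against the PDL control the median log2 ratio was 0.05 in IKVAV PA, with 27 of 39 positive, and 0.01 in IKVAV PA + PEDOT-S, with 20 of 39 positive, which was negative with total counts, with pan-neuronal scaling, with GC medians removed and as a mean. These comparisons share the PDL control library. Between the scaffolds the median was -0.06, with 27 of 39 negative, and lay between -0.10 and -0.03 over the alternatives. Over all genes compared the 3 medians were 0.00, -0.00 and 0.01, and 6947, 6863 and 7181 of 13884 genes had a positive ratio. The IKVAV PA library held the highest level of 21 of 39 members, and of 31.8% of all genes. The largest group, 12 members, ran from IKVAV PA down through IKVAV PA + PEDOT-S to the PDL control, an order that 12.9% of all genes had. By role, the 4 CaM kinase II genes were all negative between the scaffolds (median -0.10). The medians of the remaining scaffolds (-0.14, 4 of 5 negative) and of the spine actin genes (-0.13, 3 of 4 negative) were lower still. In IKVAV PA + PEDOT-S against the PDL control the CaM kinase II genes did not move together. Camk2a (-0.50) and Camk2d (-0.36) were negative, Camk2b (0.02) and Camk2g (0.03) positive, and the median was -0.17.

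Long genes were more frequent among the members than among all genes. The genomic span exceeded 100 kb in 20 of 39 members (51.3%), against 15.4% of all genes compared. The 19 shorter members had a median log2 ratio between the scaffolds of -0.11, with 16 negative, beside 0.01, with 5536 negative, for the 11737 shorter genes. The 20 longer members had a median of -0.02, with 11 negative, beside -0.02, with 1162 negative, for the 2139 longer genes. The median GC content of the longest transcript was 52.1% in members and 49.4% in all genes, and 18 members lay above 52.7%, the lower limit of the GC-rich class of genes. All of these 18 but Dlgap2, Dlgap4 and Shank2 were also among the shorter members, so the groupings by span and by GC content overlap. Of the 18, 15 were negative between the scaffolds (median log2 ratio -0.11), while all 4626 genes of that class had a median of 0.01, with 2238 negative. In IKVAV PA against the PDL control 15 of the 18 were positive, with a median of 0.10. The class had a median of 0.03, with 58.8% of its genes positive.

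**Figure D4:**
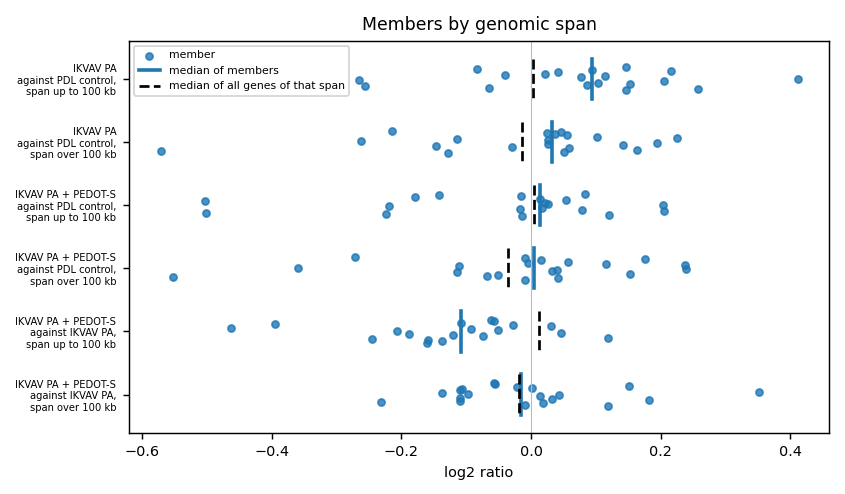
Log2 ratios of members (points) with a genomic span up to or over 100 kb in the 3 comparisons, with the median of members (solid blue) and of all genes of that span (dashed black). The median of the shorter members lies left of the dashed line between the scaffolds, at -0.11, and right of it in IKVAV PA against the PDL control, at 0.09.

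Other postsynaptic genes, 63 in 7 lists chosen by function, were all measured, and none passed the 1.5-fold bound in any comparison. Past the 1.2-fold bound 2 were higher and 0 lower in IKVAV PA (background 2.95% and 6.83%), 2 higher and 1 lower in IKVAV PA + PEDOT-S (2.61% and 7.74%), both against the PDL control, and 1 higher and 1 lower between the scaffolds (2.33% and 6.24%). With 63 genes these counts lie near or below the background. Their median log2 ratios were 0.00, 0.01 and -0.01. Against the PDL control, which both comparisons share, the higher genes were Cnih2 and Cacng8. Cnih2, a cornichon that slows the closing of AMPA receptors, stood at 274, 272 and 214 CPM (log2 ratios 0.36 and 0.35), and Cacng8, the auxiliary AMPA receptor subunit TARP gamma-8, at 30.4, 30.2 and 23.3 CPM (0.39 and 0.38). Rasgrf1, a calcium-dependent exchange factor for Ras, was lowest in IKVAV PA + PEDOT-S, as were 35.3% of all genes compared. It stood at 18.7, 14.0 and 22.3 CPM, with log2 ratios of -0.67 (interval -0.78 to -0.56) to the PDL control and -0.42 to IKVAV PA. Lrrtm1, an adhesion protein of excitatory synapses, was highest in that library, as were 36.5% of all genes compared. Its levels were 75.1, 93.2 and 79.8 CPM, with a log2 ratio between the scaffolds of 0.31 (0.27 to 0.36). Of the 14 calmodulin signalling genes, among them the calmodulin genes themselves and the inhibitors of CaM kinase II, 0 were called past 1.2-fold, a number too small to be set apart from the background, and their median log2 ratios were 0.01, 0.03 and 0.03.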

How the data were processed

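The authors deposited whole-number counts per Ensembl gene, 1 table a library. Per the submitters' processing notes, the tools named are cutadapt 4.2, STAR 2.7.5, HTSeq 2.0.2 and also DESeq2 1.14.1, and the build named is mm10. No source used here gives their order, settings, annotation or strand, so reads of overlapping genes cannot be told apart. The labels name a total RNA kit as well as polyA RNA. GENCODE M21 (GRCm38) supplied symbols, exon lengths, GC content and coordinates for 54165 of 54232 identifiers.

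TMM factors (edgeR 4.0.16, R 4.3.3) were 1.00, 0.990 and 1.01. Log2 ratios used prior count 2, and exact Clopper-Pearson 95% intervals (scipy 1.17.1, Python 3.11.15) cover counting error only, since reads are not independent molecules. The procedure was run on simulated counts that varied by counting error only, so that run says nothing about variation between cultures. Members, lists and bounds were chosen with earlier results of these data known. The text may name all members, and of the other postsynaptic genes those past 1.2-fold, at most 4 per direction and comparison. Alternatives tried were scaling by total counts, by DESeq2 1.42.0 size factors or to pan-neuronal genes, leaving out Homer3, protein-coding genes only, thinning, filters of 5 CPM and none, prior count 0.5, means for medians, shares per kilobase and, added after seeing the data, removal of GC medians.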

Additional observations from a re-analysis of the deposited data

How the results depend on the processing

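The calls of members past 1.5-fold (0 throughout) and 1.2-fold were the same in number under DESeq2 size factors, total counts, scaling to the pan-neuronal median, protein-coding genes, thinned libraries and other expression filters. With GC medians removed, a choice made after seeing the data, 0 members were higher beyond 1.2-fold in IKVAV PA against the PDL control, since Nrgn no longer passed. The median of all members in IKVAV PA + PEDOT-S against the PDL control (0.01) turned sign as a mean in place of a median (-0.037), with total counts (-0.013), with pan-neuronal scaling (-0.016) and with GC medians removed (-0.010), and was 0.034 with DESeq2 size factors. That of IKVAV PA (0.05) was 0.027 as a mean. Between the scaffolds the median (-0.06) was -0.10 when scaled to pan-neuronal genes and -0.033 with DESeq2 size factors. Per kilobase the Camk2a share was 17.0% in IKVAV PA, 13.6% in IKVAV PA + PEDOT-S and 18.4% in the PDL control. No paired analysis was possible because only repeat 3 of each group, 1 library, was at hand, so no library could be left out either. Depth limited Tanc1 most, whose interval reached 0.17 to each side of its ratio to IKVAV PA.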
